A study of Mus musculus with 8 samples.

Results

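The genes described here build and load the replicative helicase. They are the 6 subunits of the MCM2-7 ring (*Mcm2* to *Mcm7*), the loading factors *Cdc6* and *Cdt1*, the helicase cofactor *Mcm10* and the sliding clamp *Pcna*. They were found by gene symbol in the deposited expression table, where each of the 10 symbols matched a single row among 18990 genes. The study asked how depletion of the corepressor *Ncor1* and of *Oct4* affects early reprogramming of fibroblasts to induced pluripotent stem cells. Primary MEFs of wild-type C57/BL6 mice (BL6 in the labels) were transduced with lentiviruses that carry rtTA and the tet-STEMCCA cassette, which encodes OCT4, SOX2, KLF4 and MYC (OSKM) and is switched on by doxycycline. The cells were reverse transfected with 40 nM of pooled siRNAs, with 3 siRNAs per target, and 1 day later received doxycycline in reprogramming medium with chiron, Alk5 inhibitor, ascorbic acid and LIF. The 4 groups were *siNcor1* at day 3, *siOct4* at day 3, *siNcor1* at day 6 and *siOct4* at day 6, each with 2 biological replicates at passage 2. All groups therefore carried the cassette and received doxycycline, and cells that took up the virus were not separated from those that did not. Libraries with non-targeting siRNA were not used here, so no value below is relative to a control.

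A cell copies its DNA once per cycle because origins are licensed in G1 and fired in S phase. The origin recognition complex (ORC) marks an origin, and CDC6 and CDT1 then place rings of MCM2-7 around the DNA. The ring becomes an active helicase when CDC45 and GINS join it, a step that also needs MCM10. Geminin binds CDT1 after S phase has begun, and CDT1 is degraded on PCNA-loaded DNA, which prevents a further round of loading. PCNA is the clamp that holds the polymerases on DNA. Most of these genes are textbook targets of the E2F factors, so they are often used as markers of proliferating cells, and fibroblasts that reprogram usually divide many times before they form colonies.

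On GRCm38, which is mm10, the loading factors lie at chr11:98907801-98923940 on the forward strand (*Cdc6*) and chr8:122568015-122573554 on the forward strand (*Cdt1*). The ring genes lie at chr6:88883474-88898780 (*Mcm2*), chr1:20802968-20820312 (*Mcm3*), chr16:15623897-15637400 (*Mcm4*), chr8:75109569-75128439 (*Mcm5*), chr1:128331590-128359664 (*Mcm6*) and chr5:138164583-138172422 (*Mcm7*). Of these, *Mcm5* is on the forward strand and the other ring genes are on the reverse strand. *Mcm10* at chr2:4989714-5012791 and *Pcna* at chr2:132249162-132253314 are also on the reverse strand. All 10 are annotated as protein coding in GENCODE M21. *Mcm7* overlaps *Cops6* and *Ap4m1* on the opposite strand and hosts the microRNA genes *Mir25*, *Mir93* and *Mir106b*. *Cdt1* overlaps the gene model *Gm20388* on the same strand. Whether reads were counted by strand is not given in the sources used here, so reads of *Mcm7* and of its opposite-strand neighbours may not be fully separated.

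Since most of the 10 genes are known as E2F targets, the promoter windows of RefSeq (GRCm38.p6, from 250 bases before to 50 bases after the start site) were searched for the E2F-type letters TTTCCCGC, TTTCGCGC, TTTGCCGC and TTTGGCGC on either strand. The RefSeq table held a window for 9 of the 10 genes, with a pair of windows for *Mcm7*. *Mcm4* had no entry. A match was found for 6 of the 9 genes, and 2.26% of all 32851 windows held a match. The matches are shown because E2F is the factor by which most of these genes are known to be controlled. One match per gene follows, 5′ to 3′ on the strand of the gene, with the matched letters in capitals.
Cdc6: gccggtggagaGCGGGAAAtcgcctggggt
Cdt1: ggaactaccttTTTGGCGCcatggcgcaa
Mcm3: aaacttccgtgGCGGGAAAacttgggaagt
Mcm5: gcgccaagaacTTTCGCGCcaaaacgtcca
Mcm6: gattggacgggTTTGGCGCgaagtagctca
Mcm7: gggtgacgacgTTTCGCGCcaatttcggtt
The printed stretches are chr11:98908002-98908031 (*Cdc6*), chr8:122568036-122568064 (*Cdt1*), chr1:20820275-20820304 (*Mcm3*), chr8:75109345-75109374 (*Mcm5*), chr1:128359734-128359763 (*Mcm6*) and chr5:138171849-138171878 (*Mcm7*). In *Cdc6* and *Mcm3* the match reads on the opposite strand. *Mcm3*, *Mcm5* and *Mcm7* held 2 matches and *Mcm6* held 3, and in *Mcm5* and *Mcm6* 2 of the matches overlap. *Mcm2*, *Mcm10* and *Pcna* had no match in their windows. The letters CCAAT, on either strand, were present in 7 of the 9 genes and in 37.4% of all windows. The E-box letters CACGTG were in none of the windows of the 9 genes and in 7.15% of all windows. These are matches of letters in a window, and binding was not measured.

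The libraries held between 7735742 and 16445192 reads on genes. The 10 genes had between 136 reads (*Cdc6* in a *siNcor1* library at day 6) and 3548 reads (*Mcm7* in a *siNcor1* library at day 3). A single non-coding gene, *Gm26917*, held 15.5% to 16.6% of reads at day 3 and 20.3% to 29.1% at day 6. As a check of the labels, *Ncor1* had 7.08 and 7.20 log2-cpm with *siNcor1* and 7.82 and 7.94 with *siOct4* at day 3, a log2 difference of 0.74 (adjusted p = 0.0139, limma). At day 6 *Ncor1* differed by −0.042 (adjusted p = 0.815). *Pou5f1*, which encodes OCT4 and whose reads can come from the cassette, had 7.63 and 7.68 log2-cpm in *siNcor1* and 7.53 and 7.62 in those labelled *siOct4* at day 3 (adjusted p = 0.941). At day 6 *Pou5f1* had 7.55 and 7.32 in *siNcor1* and, where labelled *siOct4*, 9.45 and 8.97, with a log2 difference of 1.78 (adjusted p = 0.000109). *Sox2*, *Klf4* and *Myc*, which the cassette also carries, differed in the same way at day 6, by 1.63, 1.67 and 1.59 (adjusted p = 0.000328, 0.000261 and 0.000196). *Pou5f1* thus goes against that label at day 6. The study describes the *Oct4* knockdown as transient. By RT-qPCR it found *Oct4* mRNA efficiently silenced before day 3, with a rapid recovery that it ascribes to high expression from the cassette. The effect of the knockdown before day 3 was not measured here, so the label is quoted as such for every value of these libraries.

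Fibroblast markers were strongly present in every library. The 8 markers summed to between 6803 and 7023 CPM in *siNcor1* and between 9357 and 11079 CPM in those labelled *siOct4* at day 3. None of the 8 was called between the knockdowns at day 3. At day 6 they summed to between 4688 and 5109 CPM and between 2600 and 2785 CPM, respectively. These sums rest largely on *Col1a1*, with 3812 and 3617 CPM in *siNcor1* at day 3. Over time in *siNcor1*, 4 of the 8 were called higher and 3 lower. The 8 pluripotent cell markers summed to between 4.47 and 14.8 CPM at day 3, with *Zfp42* and *Dppa4* at 0 reads. At day 6 they summed to between 107 and 115 CPM in *siNcor1* and between 50.2 and 58.9 CPM in the libraries labelled *siOct4*. Macrophage markers (5 of 7 used here) summed to between 5.39 and 12.1 CPM over all libraries. Keratinocyte markers summed to between 0.986 and 1.77 CPM at day 3, and at day 6 to between 7.68 and 9.83 CPM in *siNcor1* and between 1.90 and 2.38 CPM under the label *siOct4*. *Krt14* was the only one of these 5 tested, and it was called lower under that label at day 6 (log2 difference −1.32, adjusted p = 0.0443), while *Krt5* had 2.07 and 4.03 CPM in *siNcor1* and 0.317 and 1.02 CPM under the label *siOct4*. Endothelial markers summed to between 40.8 and 44.4 CPM at day 3 and between 16.4 and 20.9 CPM at day 6. Most of this was *Tek*, with between 39.3 and 43.2 CPM at day 3. *Tek*, the only one tested, was called lower over time in both knockdowns. Skeletal muscle markers (3 of 5 used here) summed to between 44.7 and 120 CPM at day 3 and between 16.6 and 28.0 CPM at day 6, with 2 of 3 called lower over time in both. Of all genes tested, 1.07% were called between the knockdowns at day 3. Over time, 20.9% were called lower in *siNcor1* and 30.5% under the label *siOct4*, and 1917 of 13866 were called higher in *siNcor1*. The defining genes *Pecam1*, *Cdh5*, *Trp63* and *Adgre1* were under 1 CPM on average. The part of these cells in the results below was not tested.

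**Figure D1:**
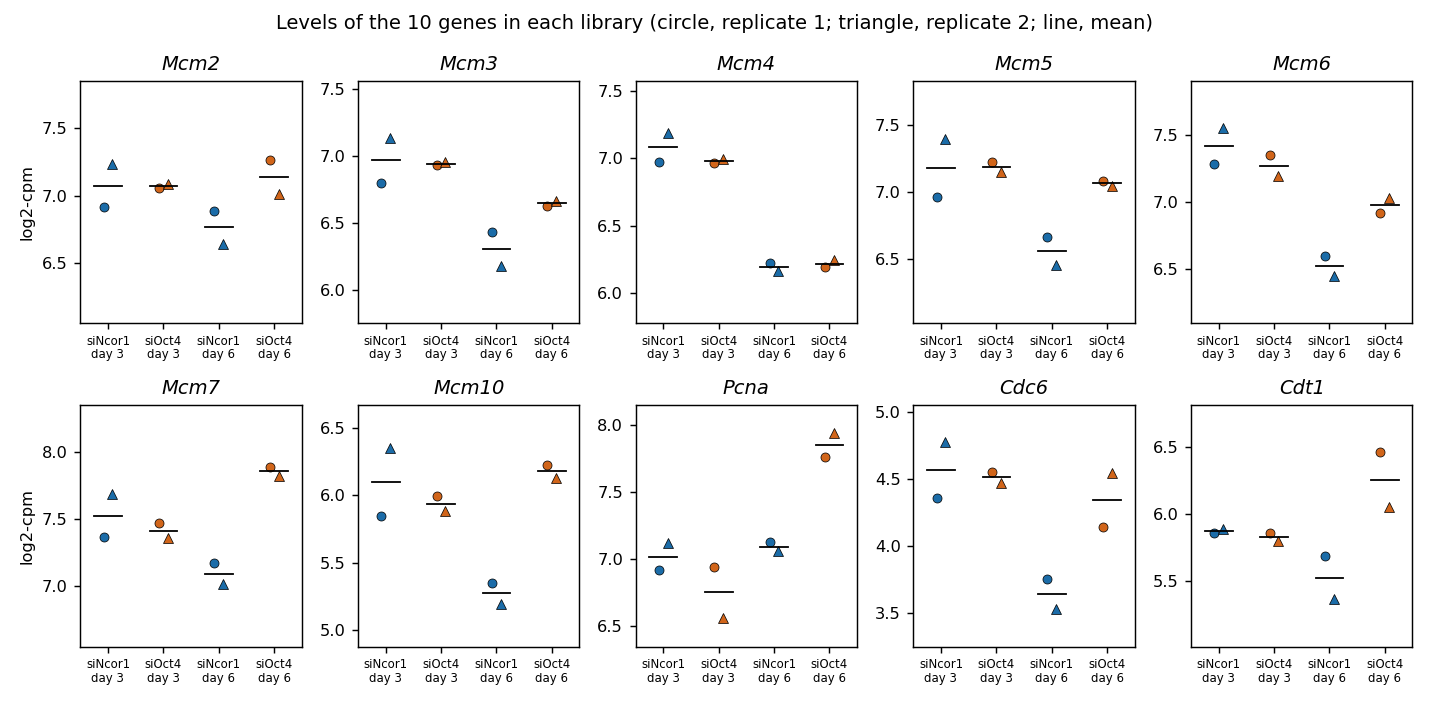
Levels of the 10 genes in log2-cpm (y axis, each panel with its own offset and the same span) in the 4 groups (x axis). Points are the 2 libraries of a group and lines are their means. *Pcna* and *Mcm7* stand highest in the libraries labelled *siOct4* at day 6, while *Mcm4* is low in all 4 libraries of day 6.

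The ring subunits enter the complex in equal number, so their mRNA levels were compared per kb of merged exons. *Mcm7* had the highest level of the 6 in all 8 libraries, with means of 41.8 ± 6.60 CPM per kb (SD, n = 2) in *siNcor1* at day 3 and 52.2 ± 1.61 at day 6 under the label *siOct4*. *Mcm2* had the lowest level in 7 of 8 libraries, with group means between 15.7 and 20.3 CPM per kb. The exception was a library labelled *siOct4* at day 6, where *Mcm4* was lowest at 20.3 CPM per kb and *Mcm2* had 22.0. These ranks depend on the length, which joins all annotated exons and need not be that of the expressed transcripts. It was 6.956 kb for *Mcm2* and between 3.589 and 4.666 kb for the other ring genes. Before division by length, *Mcm2* had a mean of 130 CPM over the 8 libraries. *Mcm3* (107) and *Mcm4* (102) were lower, *Mcm5* (130) was alike, and *Mcm6* (136) and *Mcm7* (181) were higher. At day 3 *Mcm3*, *Mcm4*, *Mcm5* and *Mcm6* had group means between 32.8 and 37.8 CPM per kb. In *siNcor1* at day 3 the replicate ranges of these 4 genes overlap, so their order there is not larger than the spread.

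The ratio of *Mcm7* to *Mcm4* was higher at day 6. *Mcm7* had between 1.04 and 1.15 times the level of *Mcm4* per kb in the 4 libraries of day 3. This ratio was 1.57 and 1.47 in *siNcor1* at day 6, and 2.62 and 2.43 at day 6 in those labelled *siOct4*. The 3 ranges do not overlap. *Mcm7* and *Mcm4* had the largest and the smallest log2 difference of the ring between the knockdowns at day 6 (0.76 and 0.024). They are thus an extreme pair, and ranges that lie apart add no separate support. A permutation test of the 2 against 2 libraries of day 6 cannot go below p = 0.333. The ratio is therefore given as a description. The highest subunit was between 1.90 and 2.15 times the lowest at day 3 and in *siNcor1* at day 6. In the libraries labelled *siOct4* at day 6 it was 2.62 and 2.76 times the lowest. The size of these ratios also depends on the merged exon lengths. Outside the ring, *Pcna* had the highest level of all 10 genes in all 8 libraries, with means of 54.1 ± 5.24, 45.3 ± 8.44, 56.9 ± 2.00 and 96.2 ± 8.15 CPM per kb in the 4 groups. *Cdc6* was the lowest of the 10 in all 8 libraries, with group means between 2.37 and 4.55 CPM per kb, and *Mcm10* was next with means between 5.01 and 9.41. Before division by length, *Mcm10* (7.692 kb) and *Cdt1* (3.14 kb) had means of 60.4 and 59.6 CPM, and *Cdc6* had 19.8.

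**Figure D2:**
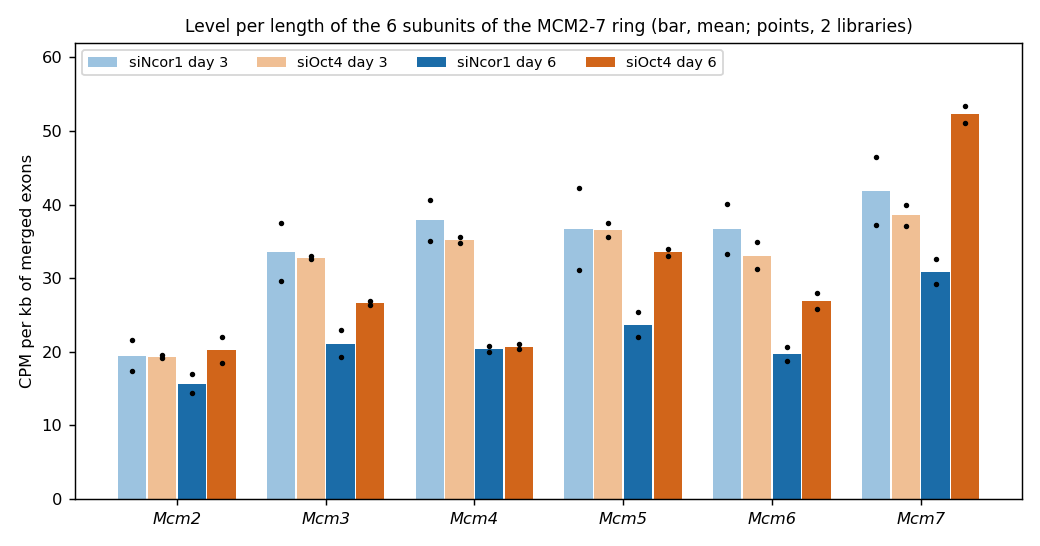
Level of each ring subunit in CPM per kb of merged exons (y axis, from 0), by gene (x axis) and group (colour). Bars are means and points the 2 libraries. *Mcm7* reaches 51.1 and 53.4 in those labelled *siOct4* at day 6, where *Mcm4* stays at 20.3 and 21.0.

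The first comparison asked whether the knockdowns differ at day 3. None of the 10 genes passed the test between the libraries labelled *siOct4* and *siNcor1* at day 3, in limma as in voom on the recovered reads, and the libraries of the groups overlapped for every gene. Of all 13866 genes tested, 1.07% were called at day 3 and 1460 had an unadjusted p under 0.05. Libraries did not overlap for 43.4% of all genes. The log2 differences ran from −0.27 for *Pcna* (95% interval −0.58 to 0.048, adjusted p = 0.589) to 0.010 for *Mcm5* (−0.31 to 0.33, adjusted p = 0.994). Their median was −0.078, beside −0.021 over all genes. 

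At day 3 the replicates were farther apart in *siNcor1* for 8 of the 10 genes, with *Pcna* and *Cdt1* as the exceptions. *Pcna* had 6.92 and 7.12 log2-cpm in *siNcor1* and 6.95 and 6.56 under the label *siOct4*. The *Mcm10* values of *siNcor1* were 5.85 and 6.36 log2-cpm, and those under the label *siOct4*, 6.00 and 5.88, lie between them. *Mcm5* had 6.96 and 7.40 in *siNcor1* and 7.23 and 7.15 in the libraries labelled *siOct4*. In *siNcor1* at day 3, replicate 2 was above replicate 1 for all 10 genes, with a median gap of 0.32 on the log2 scale. The corresponding median gap was −0.081 in the libraries labelled *siOct4*. The loading factors were close in both knockdowns, with *Cdt1* at 5.85 and 5.89 in *siNcor1* and 5.86 and 5.80 in the libraries labelled *siOct4*. *Cdc6* had 4.36 and 4.77 log2-cpm in *siNcor1*, with 4.55 and 4.47 under the label *siOct4* inside that range.

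At day 6 the licensing genes stood higher with the label *siOct4* than with *siNcor1*. Of the 10 genes, 7 rose by the test, none fell and 3 did not pass. Over all genes tested, 30.7% were called, 12.1% higher and 18.6% lower, with 1678 genes higher and 2573 lower. Without normalization factors that split was 1172 higher and 3091 lower, and 5 of the 10 genes were called, all higher. The genes that passed were *Mcm5*, *Mcm6*, *Mcm7*, *Mcm10*, *Pcna*, *Cdc6* and *Cdt1*, with 1.37-fold to 1.87-fold higher levels. The libraries did not overlap and were higher for 9 of 10 genes, with *Mcm4* as the exception, whereas 29.9% of all genes had such a pattern. The median log2 difference was 0.60 over the 10 genes and −0.025 over all genes. In RNA from a whole culture, fewer cycling cells and less of these mRNAs per cell cannot be told apart.

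Among the loading factors, *Cdt1*, which brings the ring to ORC, had 5.69 and 5.37 log2-cpm in *siNcor1* at day 6 and 6.46 and 6.05 in the libraries labelled *siOct4*. The difference was 0.73 (SE 0.15, adjusted p = 0.00531). *Cdc6*, the ATPase that works with CDT1, had 3.76 and 3.53 in *siNcor1* and 4.14 and 4.55 in the libraries labelled *siOct4*. Its difference was 0.70 (SE 0.19, adjusted p = 0.0158). These genes had the widest gaps between the replicates labelled *siOct4* at day 6, with replicate 2 minus replicate 1 at −0.41 for *Cdt1* and 0.40 for *Cdc6*.

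In the ring, *Mcm7* differed most. It had 7.17 and 7.01 log2-cpm in *siNcor1* and 7.89 and 7.82 in the libraries labelled *siOct4*, a difference of 0.76 (SE 0.13, adjusted p = 0.00195). *Cops6* and *Ap4m1*, which overlap *Mcm7* on the other strand, differed by 0.042 (adjusted p = 0.856) and −0.14 (adjusted p = 0.605). *Mcm5* had 6.67 and 6.46 in *siNcor1* against 7.09 and 7.04, a difference of 0.50 (adjusted p = 0.0230). *Mcm6* had 6.59 and 6.45 against 6.92 and 7.03, a difference of 0.45 (adjusted p = 0.0217). These ranges are apart, but by less than for *Mcm7*.

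The 3 ring genes that did not pass were *Mcm2*, *Mcm3* and *Mcm4*. *Mcm2* had 6.89 and 6.64 log2-cpm in *siNcor1* and 7.26 and 7.01 in the libraries labelled *siOct4*, a difference of 0.37 (95% interval 0.058 to 0.69, adjusted p = 0.0694). *Mcm3* had 6.43 and 6.18 against 6.63 and 6.66, a difference of 0.34 (0.041 to 0.64, adjusted p = 0.0800). Both were without overlap, and both passed when values were centred on the median (adjusted p = 0.0489 and 0.0499). *Mcm3* also passed with quantile normalization (0.0426), and *Mcm2* without replicate 2 of the day 6 libraries labelled *siOct4* (0.0251). *Mcm4* had 6.23 and 6.16 against 6.19 and 6.24, a difference of 0.024 (−0.23 to 0.28, adjusted p = 0.899). Its interval lies wholly below that of *Mcm7*, 0.47 to 1.05, and overlaps those of the other 4 subunits.

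*Mcm10*, which helps turn the loaded ring into a moving helicase, had the largest difference of the 10 genes. It had 5.35 and 5.19 log2-cpm in *siNcor1* and 6.23 and 6.13 in the libraries labelled *siOct4*, a difference of 0.91 (SE 0.16, adjusted p = 0.00202). *Pcna* had 7.13 and 7.06 against 7.76 and 7.94, a difference of 0.76 (SE 0.14, adjusted p = 0.00301). In both genes the gap between the groups was wider than the gap between replicates.

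**Figure D3:**
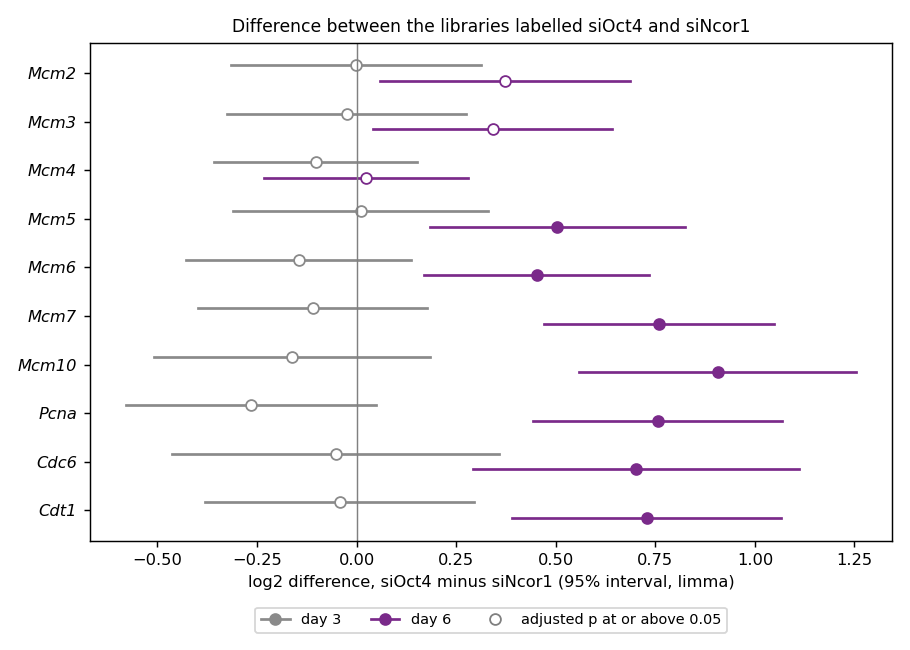
Log2 difference between the libraries labelled *siOct4* and *siNcor1* (x axis) for each gene (y axis) at day 3 (grey) and day 6 (purple), with 95% intervals from limma. Filled points passed at an adjusted p under 0.05. Every day 3 interval spans 0, and 7 day 6 points are filled.

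Replicate 2 of *siNcor1* at day 6 was below replicate 1 for all 10 genes, by a median of 0.18 on the log2 scale (gap −0.18). Without it, 3 of the 7 calls were left (*Mcm7*, *Mcm10* and *Pcna*), and *Mcm5*, *Mcm6*, *Cdc6* and *Cdt1* had adjusted p-values of 0.194, 0.178, 0.132 and 0.0760. *Mcm6* was also not called without replicate 1 of *siNcor1* at day 6 (adjusted p = 0.0545), and neither *Mcm6* (0.0522) nor *Cdc6* (0.0663) was without replicate 2 of the day 6 libraries labelled *siOct4*. *Mcm5* and *Mcm6* were not called with no trend of the variance (0.0732 and 0.0662) or without normalization factors (0.0548 and 0.0600). The cassette and cell markers moved with the same comparison. The 4 OSKM genes summed to between 1114 and 1215 CPM in *siNcor1* and between 3032 and 4434 CPM in those labelled *siOct4* at day 6, and all 4 were called higher. Over all genes, 12.1% were called higher and 18.6% lower. Of the 8 fibroblast markers, 6 were called lower in the libraries labelled *siOct4*, and of the 6 pluripotent cell markers tested, 3 were called lower. The part of these differences in the licensing genes was not tested.

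The next comparison asked how the levels changed with time in *siNcor1*. Between day 3 and day 6, 7 of the 10 genes fell, none rose and 3 did not pass. Over all genes, 34.8% were called and 20.9% were called lower. The genes that fell were *Cdc6*, *Mcm6*, *Mcm4*, *Mcm10*, *Mcm3*, *Mcm5* and *Mcm7*. The median log2 difference was −0.64, beside −0.068 over all genes. The libraries were lower without overlap for 9 of the 10 genes and for 41.7% of all genes.

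*Cdc6* had the largest decrease, from 4.36 and 4.77 to 3.76 and 3.53 log2-cpm, which is 1.89-fold (log2 difference −0.92, SE 0.19, adjusted p = 0.00318). *Mcm6* went from 7.28 and 7.55 to 6.59 and 6.45, a log2 difference of −0.89 (SE 0.13, adjusted p = 0.000462). *Mcm4* went from 6.98 and 7.19 to 6.23 and 6.16, also −0.89 (SE 0.12, adjusted p = 0.000253). In each of these genes the 2 values of day 6 lay well below those of day 3. *Mcm10* fell by 0.83 on the log2 scale (adjusted p = 0.00230), and *Mcm3*, *Mcm5* and *Mcm7* had log2 differences of −0.66, −0.62 and −0.43 (adjusted p = 0.00347, 0.00715 and 0.0251).

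*Mcm2* and *Cdt1* did not pass, with log2 differences of −0.31 (95% interval −0.62 to 0.0045, adjusted p = 0.116) and −0.34 (−0.68 to −0.0063, adjusted p = 0.105). *Cdt1* passed without either day 6 library labelled *siOct4* (0.0356 and 0.0351) and with only the groups compared (0.0402). *Pcna* was the gene whose libraries overlapped, with 6.92 and 7.12 log2-cpm at day 3 and 7.13 and 7.06 at day 6. Its difference was 0.074 (−0.24 to 0.39, adjusted p = 0.723). Of the other 9 genes, 7 fell. Without replicate 2 of *siNcor1* at day 3, which held the highest values for all 10 genes in that group, 3 calls were left (*Mcm4*, *Mcm6* and *Mcm10*). The adjusted p-values of *Cdc6* and *Mcm3* were then 0.0526 and 0.0529, and those of *Mcm5* and *Mcm7* were 0.0938 and 0.235. Without replicate 2 of *siNcor1* at day 6, *Mcm5* (0.0739) and *Mcm7* (0.174) were not called, and without replicate 1 *Mcm7* was not (0.0641). *Mcm7* was also not called with quantile normalization (log2 difference −0.27, adjusted p = 0.128), with totals that leave out *Gm26917* (0.0596) or with no trend of the variance (0.0711). In the same comparison, 2 of the 4 OSKM genes were called lower and none higher, from between 1653 and 1688 CPM in sum at day 3. Over all 13866 genes tested, 1917 were called higher and 2902 lower. Of the 6 pluripotent cell markers tested, 5 were called higher, and of the 8 fibroblast markers, 4 were called higher and 3 lower. Their part in the change of the licensing genes was not tested.

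In the libraries labelled *siOct4* the 10 genes did not move together over time. From day 3 to day 6, 3 genes rose (*Pcna*, *Mcm7* and *Cdt1*), *Mcm4* fell and 6 genes did not pass. Over all genes, 52.7% were called, with 22.2% higher and 30.5% lower, so the share of the 10 genes that passed was not above that of all genes. With *Gm26917* left out of the library totals, 3821 genes were called higher and 3445 lower in place of 3079 and 4233, and the median of all genes was 0.054 in place of −0.079. The median log2 difference of the 10 genes was −0.030, and 0.11 with those totals. Libraries did not overlap and were higher for *Pcna*, *Mcm7*, *Mcm10* and *Cdt1*, and lower for *Mcm3*, *Mcm4*, *Mcm5* and *Mcm6*. Such patterns were seen in 32.7% and 42.1% of all genes.

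*Pcna* rose most, from 6.95 and 6.56 to 7.76 and 7.94 log2-cpm, which is 2.14-fold (log2 difference 1.10, SE 0.14, adjusted p = 7.48e-05). *Mcm7* went from 7.47 and 7.36 to 7.89 and 7.82, a log2 difference of 0.44 (SE 0.13, adjusted p = 0.0147). *Cdt1* went from 5.86 and 5.80 to 6.46 and 6.05, a log2 difference of 0.43 (SE 0.15, adjusted p = 0.0358). The day 3 values of all 3 genes lay below their day 6 values. *Mcm4* went from 6.96 and 6.998 to 6.19 and 6.24 log2-cpm, which is 1.70-fold lower (log2 difference −0.76, SE 0.12, adjusted p = 0.000226). It was the ring gene that fell in both knockdowns.

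The other ring genes lay between these extremes. *Mcm3*, from 6.94 and 6.95 to 6.63 and 6.66, and *Mcm6*, from 7.35 and 7.19 to 6.92 and 7.03, had log2 differences of −0.30 and −0.29 (adjusted p = 0.0886 and 0.0751). *Mcm5* and *Mcm2* had log2 differences of −0.12 (−0.45 to 0.20) and 0.064 (−0.25 to 0.38). *Mcm2* went from 7.06 and 7.09 to 7.26 and 7.01, so its day 6 libraries lay on both sides of those of day 3. *Mcm10* had a log2 difference of 0.24 (−0.11 to 0.59, adjusted p = 0.225), and *Cdc6* had −0.17 (−0.58 to 0.24, adjusted p = 0.478). *Mcm10* passed with quantile normalization (0.48, adjusted p = 0.0226), and *Mcm6* without normalization factors (−0.35, adjusted p = 0.0434). Without replicate 2 of the day 3 libraries labelled *siOct4*, the shallowest of the series at 7735742 reads, *Mcm7* (adjusted p = 0.0974) and *Cdt1* (0.147) were no longer called, and *Pcna* and *Mcm4* were. The call of *Cdt1* was lost in 8 of the 20 alternatives. Without replicate 1 of the day 6 libraries labelled *siOct4*, its log2 difference was 0.22 (adjusted p = 0.232). It was also not called without replicate 1 of the day 3 libraries labelled *siOct4* (0.0902), without either *siNcor1* library of day 3 (0.0559 and 0.0561), with no trend (0.0855), without normalization factors (0.0535) or with only the groups compared (0.0656). All 4 OSKM genes were called higher over the same days, from between 1541 and 1708 CPM in sum at day 3. Over all genes, 22.2% were called higher and 30.5% lower. All 6 pluripotent cell markers tested were called higher, and of the 8 fibroblast markers, 2 were called higher and 5 lower. Their part in the values of the 10 genes was not tested.

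**Figure D4:**
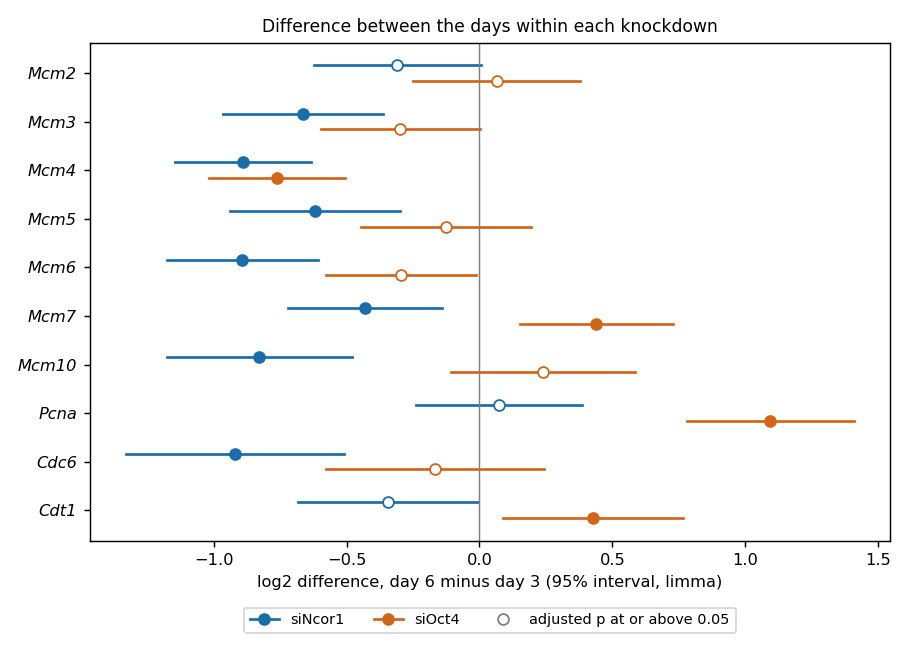
Log2 difference between day 6 and day 3 (x axis) for each gene (y axis) in *siNcor1* (blue) and in the libraries labelled *siOct4* (orange), with 95% intervals from limma. Filled points passed at an adjusted p under 0.05. The *siNcor1* points lie at or left of 0 except for *Pcna* at 0.074, and *Mcm4* is far to the left in both.

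Whether the change over time differed between the knockdowns was tested directly, as the day 6 minus day 3 difference in the libraries labelled *siOct4* less that in *siNcor1*. This difference was above 0 and passed for 5 of the 10 genes. Over all genes 20.7% passed, and 7.77% passed in this direction. The genes were *Mcm10* (1.07, SE 0.22, adjusted p = 0.00771), *Pcna* (1.02, SE 0.20, adjusted p = 0.00573), *Mcm7* (0.87, SE 0.19, adjusted p = 0.00838), *Cdt1* (0.77, SE 0.22, adjusted p = 0.0291) and *Mcm6* (0.60, SE 0.18, adjusted p = 0.0389). *Cdc6* had 0.75 (adjusted p = 0.0639), and passed with median centring (0.0419), quantile normalization (0.0326), totals without *Gm26917* (0.0402) and without replicate 1 of the day 6 libraries labelled *siOct4* (0.0162). *Mcm5*, *Mcm2* and *Mcm3* had values of 0.49, 0.37 and 0.37 with adjusted p-values of 0.111, 0.212 and 0.201. *Mcm4* had 0.13 (95% interval −0.23 to 0.49, adjusted p = 0.621).

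The median over the 10 genes was 0.68, beside 0.012 over all genes. *Mcm10* and *Pcna* passed here whichever single library was left out. Leaving out replicate 2 of *siNcor1* at day 3, or replicate 2 of *siNcor1* at day 6, left these 2 genes alone. Leaving out either day 3 library labelled *siOct4* left 3 genes, without *Mcm6* and *Cdt1*. *Mcm6* was also not called without replicate 1 of *siNcor1* at day 6 (adjusted p = 0.0679), with no trend (0.0996), without normalization factors (0.0650) or with no filter (0.0514). *Cdt1* was not called without replicate 1 of *siNcor1* at day 3 (0.0696), where *Mcm5* (0.0356) and *Cdc6* (0.0465) were, or with no trend (0.0843). The calls over time differed among the 5 genes, but their courses were not tested against each other. *Mcm6* and *Mcm10* were called lower in *siNcor1* only, *Pcna* and *Cdt1* were called higher in the libraries labelled *siOct4* only, and *Mcm7* was called lower in the first and higher in the second. Genes with unlike calls can have like values. *Cdt1* had −0.34 in *siNcor1* and 0.43 under the label *siOct4*, beside −0.43 and 0.44 for *Mcm7*.

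The genes that work around the ring were described from fixed lists, each in full. At day 3 no gene of any of the replication and cell cycle lists passed between the knockdowns. At day 6, of the 6 ORC genes 2 were called higher in the libraries labelled *siOct4* and none lower, with *Orc2* at 0.79 (adjusted p = 0.0188) and *Orc3* at 0.14 (adjusted p = 0.477) as the highest and lowest. The replicates of *Orc2* lay apart under that label, with 5.37 and 6.02 log2-cpm, beside 4.79 and 5.01 in *siNcor1*. Of 12 genes of helicase activation (CDC45, GINS and the kinases and factors that recruit them) 6 were called higher, from *Recql4* at 0.82 (adjusted p = 0.00398) down to *Dbf4*, the activating subunit of the CDC7 kinase, at 0.043 (adjusted p = 0.861), which did not pass. None of the 12 was called lower. The direction was thus shared with the 10 genes, again against 12.1% called higher over all genes.

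Behind the helicase, 6 of 12 genes of the clamp loader and clamp partners were called higher at day 6. The same held for 9 of 19 genes of the replicative polymerases and fork proteins, and none of either list was called lower. Over all genes, 12.1% were called higher and 18.6% lower, and the counts in the lists below stand beside these shares. The largest values were *Rfc4*, a clamp loader subunit, at 0.83 (adjusted p = 0.00869) and *Pold2*, a subunit of polymerase delta, at 1.21 (adjusted p = 0.00172). Replicates labelled *siOct4* lay apart in both genes, with 5.15 and 5.83 log2-cpm for *Rfc4* and 6.98 and 6.40 for *Pold2*. Of 9 genes of nucleotide supply, 6 were called higher, led by *Shmt1* at 0.84 (adjusted p = 0.00261). Of 18 G2 and M genes, 7 were called higher, led by *Cdc20* at 0.75 (adjusted p = 0.00149), and *Ccnb2* was lowest at −0.028 (adjusted p = 0.899). The median log2 difference was between 0.39 and 0.50 in these 4 lists.

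Genes that restrain licensing or control entry into S phase were called in both directions, and the background over all genes was 30.7% called, 12.1% higher and 18.6% lower. *Gmnn*, which encodes geminin, had a log2 difference of 0.42 at day 6 (95% interval −0.049 to 0.88, adjusted p = 0.160). The values of *Gmnn* were 5.26 and 5.25 log2-cpm in *siNcor1* and 5.28 and 6.06 under the label *siOct4*. In its list of 8 inhibitors and CDT1 turnover genes, 2 were called higher and 1 lower, with *Dtl*, the adaptor that targets CDT1, at 0.57 (adjusted p = 0.0145) and *Cul4b* at −0.65 (adjusted p = 0.0155). Of 13 E2F and RB family genes, 3 were called higher and 1 lower, a share close to that background, with *E2f7* at 0.70 (adjusted p = 0.00984) and *Tfdp2* at −0.71 (adjusted p = 0.00453) as the extremes. Of 17 G1 and S cyclins, CDKs and inhibitors, 3 were called higher and 5 lower. *Ccne2*, a cyclin of the G1/S transition, was highest at 0.91 (adjusted p = 0.0136), and *Cdkn1c*, the CDK inhibitor p57, was lowest at −1.91 (adjusted p = 0.000196). *Ccne2* had 4.89 and 5.55 log2-cpm under the label *siOct4* and 4.11 and 4.51 in *siNcor1*.

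The MCM proteins outside the ring were not called at day 6. *Mcm8*, which with MCM9 acts in recombination, had 0.61 (adjusted p = 0.0538) and *Mcm9* had −0.21 (adjusted p = 0.442). Of these 4 genes (*Mcm8*, *Mcm9*, *Mcmbp* and *Mcmdc2*), *Mcmbp*, whose product binds free MCM subunits, fell over time in both knockdowns, with log2 differences of −0.76 in *siNcor1* (adjusted p = 0.000680) and −0.68 in the libraries labelled *siOct4* (adjusted p = 0.000508). *Mcm8* rose in the libraries labelled *siOct4*, by 1.20 (adjusted p = 0.000727), and had 0.27 in *siNcor1* (adjusted p = 0.376).

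Over time in *siNcor1*, 34.8% of all genes were called and 20.9% were called lower, and 1917 of 13866 were called higher. None of the 6 ORC genes passed, with *Orc2* lowest at −0.55 (adjusted p = 0.0720) and *Orc6* highest at 0.36 (adjusted p = 0.294). In helicase activation 6 of 12 fell, with *Ticrr*, which brings CDC45 to the ring, lowest at −0.97 (adjusted p = 0.000421) and *Gins4* highest at 0.27 (adjusted p = 0.228). Clamp loader and partner genes had 4 of 12 called, all lower, which is close to the share of all genes called, with *Atad5*, which unloads PCNA, lowest at −0.81 (adjusted p = 0.00101) and *Rfc4* highest at 0.28 (adjusted p = 0.286). Polymerase and fork genes had 9 of 19 lower and 1 higher, with *Wdhd1*, an anchor of polymerase alpha, at −1.15 (adjusted p = 0.000407) and *Rpa3*, the small subunit of the single-strand binding protein, at 0.93 (adjusted p = 0.00855).

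In *siNcor1*, 20.9% of all genes were called lower over time, and 1917 of 13866 were called higher. Among the other lists, 13 of 18 G2 and M genes, 8 of 13 E2F and RB genes and 5 of 9 nucleotide genes fell, and none rose. Their lowest genes were *Mki67* at −1.39 (adjusted p = 4.44e-05), *Rb1* at −1.49 (adjusted p = 1.92e-05) and *Rrm2*, a subunit of ribonucleotide reductase, at −1.13 (adjusted p = 7.33e-05). The highest G2 and M gene, *Nusap1* at 0.12, and the highest E2F or RB gene, *E2f5* at 0.26, did not pass (adjusted p = 0.600 and 0.261). Of the 17 cyclin, CDK and inhibitor genes 4 rose and 5 fell, with *Cdkn1c* at 1.97 (adjusted p = 3.58e-05) and *Cdk6* at −1.08 (adjusted p = 8.04e-05). *Gmnn* rose by 0.78 (adjusted p = 0.0146) while 4 of the other 7 genes of its list fell, with *Dtl* at −0.82 (adjusted p = 0.00173).

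In the libraries labelled *siOct4*, *Gmnn* rose by 1.48 from day 3 to day 6 (95% interval 1.01 to 1.94, adjusted p = 0.000145), and 3 of the other 7 genes of its list fell, with *Cul4b* at −0.87 (adjusted p = 0.00141). The inhibitor of CDT1 was thus called higher over time in both knockdowns. The counts that follow stand beside 52.7% of all genes called, 22.2% higher and 30.5% lower. Of the ORC genes 3 rose, with *Orc5* at 1.04 (adjusted p = 0.00141) and *Orc1* lowest at 0.031 (adjusted p = 0.886). Helicase activation had 3 of 12 higher and 1 lower, which is not above that background, with *Gins1* at 1.09 (adjusted p = 0.000854) and *Dbf4* at −0.39 (adjusted p = 0.0518). The clamp loader list had 4 higher and 1 lower, with *Rfc4* at 1.37 (adjusted p = 0.000128) and *Rfc1* at −0.44 (adjusted p = 0.00692). Subunits of the same pentameric loader therefore went in opposite directions, as did the ring subunits *Mcm7* and *Mcm4*.

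The remaining lists held calls in both directions there, beside 52.7% of all genes called, 22.2% higher and 30.5% lower. Polymerase and fork genes had 5 higher and 4 lower, with *Rpa3* at 1.66 (adjusted p = 0.000103) and *Clspn*, a checkpoint mediator, at −0.64 (adjusted p = 0.00542). Nucleotide genes had 3 higher and 3 lower, with *Rrm2* lowest at −0.77 (adjusted p = 0.000273). E2F and RB genes had 2 higher and 6 lower, with *E2f2* at 0.90 (adjusted p = 0.00370) and *Tfdp2* at −1.38 (adjusted p = 1.78e-05). Cyclins, CDKs and inhibitors had 2 higher and 4 lower, with *Cdkn2a* at 1.20 (adjusted p = 1.17e-05) and *Ccnd2* at −1.18 (adjusted p = 5.96e-05). G2 and M genes had 3 higher and 7 lower, with *Nusap1* at 1.07 (adjusted p = 0.000187) and *Mki67* at −1.24 (adjusted p = 2.12e-05).

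**Figure D5:**
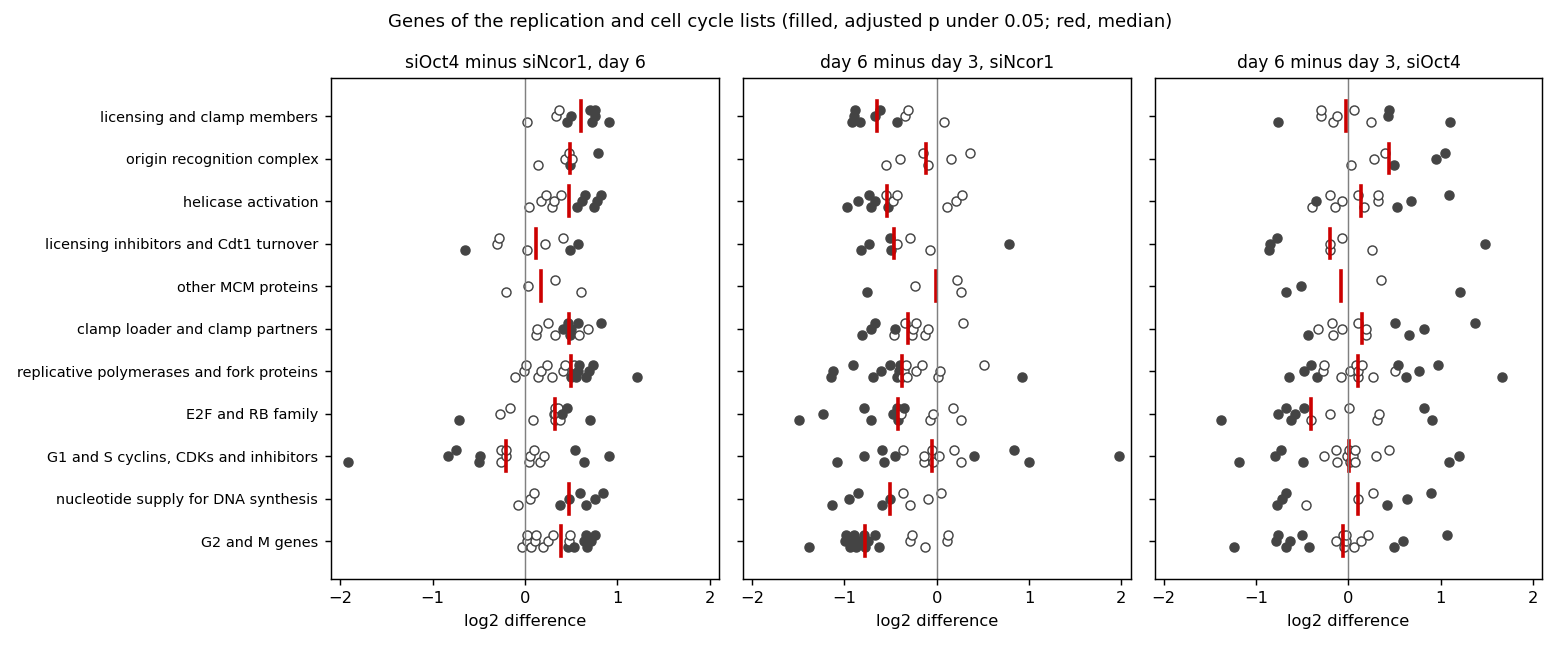
Log2 differences (x axis) of the genes of each replication or cell cycle list (y axis) in the day 6 comparison of knockdowns and in both comparisons of days. Points are genes, filled where the adjusted p was under 0.05, and red bars are list medians. In the left panel most points of the replication lists lie right of 0, with 7 of 10 licensing and clamp genes filled.

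Across the 8 libraries the levels of most of the 10 genes ran in parallel. Pearson's r between a gene and the mean of the other 9 was between 0.81 and 0.98 for *Mcm2*, *Mcm3*, *Mcm5*, *Mcm6*, *Mcm7*, *Mcm10* and *Cdc6*. It was 0.66 for *Cdt1*, 0.45 for *Mcm4* and 0.058 for *Pcna*. These values describe 4 groups of 2 libraries that share their normalization, and were not tested. *Pcna* and *Mcm4* were thus the genes that followed the others least.

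Outside the 10 genes, the 4 genes most like the mean of the 6 ring subunits over the 8 libraries were *Mthfd1* (r = 0.994), *Rad54l* (0.989), *Incenp* (0.987) and *Chd1l* (0.987), chosen from all tested genes by r alone. *Mthfd1*, an enzyme of folate metabolism, had a log2 difference between the days of −0.62 in *siNcor1* (adjusted p = 0.00520) and −0.21 in the libraries labelled *siOct4* (adjusted p = 0.219). Its difference between the knockdowns at day 6 was 0.38 (adjusted p = 0.0568). *Rad54l*, a recombination gene, was 0.52 higher in the libraries labelled *siOct4* at day 6 (adjusted p = 0.0347). Both genes were chosen by r over the same 8 libraries. Their differences between these groups therefore follow in part from that choice and add no separate support.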

How the data were processed

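The authors depleted ribosomal RNA from 200 ng of total RNA per library, sequenced paired reads of 43 bp, and aligned them to mm10 with STAR. Per the submitters' processing notes, the authors used STAR 2.5.2b and edgeR 3.20.9. The tool and annotation used to count reads are not given in the sources used here. The values the authors deposited are log2-cpm from edgeR, a log2 of CPM with a small prior count added, in 1 table of 18990 genes and 8 libraries. Whole reads were recovered from their steps for 100% of values, within 0.1 read, and gave the depth per library. A count of 3 reads is worth between 0.174 and 0.380 CPM, and counting error only is covered by such a limit.

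The 13866 genes whose mean reached 1 CPM were fitted with limma 3.58.1 (R 4.3.3) using the deposited log2 values (lmFit and eBayes with a trend), with the 4 groups in a single fit and Benjamini-Hochberg adjustment over all of them at 0.05. All 10 genes were tested. The planned design named this test for log2 values. With 2 replicates, p-values measure the spread between these libraries, which the labels call biological replicates without naming cultures. Counting noise alone did not account for the gaps between replicates (chi-square over degrees of freedom, 8.44 to 18.7). The widest gaps were in the libraries labelled *siOct4* at day 6 (18.7), and the other groups had 8.44 to 9.43. Coordinates and exon lengths came from GENCODE M21, matched by identifier for 18969 genes, and figures were drawn with matplotlib 3.10.9. The fit was run on simulated reads with the same relative spread for every gene. Of simulated log2 changes of 0.5, 1 and 2 at day 6, it called 34.2%, 85.9% and 98.4%, and 6% of its calls were false. Most changes of 0.5 were missed there. However, the simulation had 150 of 13900 genes called, against 30.7% of genes in the day 6 data. Its adjusted threshold was therefore stricter, and its shares do not carry over to these data. A gene that did not pass may still differ, within its interval.

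The genes and lists were chosen with earlier results of these data known. Named from each list are the genes with the highest and the lowest log2 difference, and *Gmnn* always, with some of these genes not reported here. Alternatives were 8 fits that leave out 1 library and 12 other settings of scaling, filter, pseudocount, trend, samples, block and voom on the recovered reads.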

Additional observations from a re-analysis of the deposited data

Results flagged for a closer look

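In 5 of the 10 genes the difference between the libraries labelled *siOct4* and *siNcor1* at day 6 was larger than that at day 3, by the interaction term of the limma fit with an adjusted p under 0.05. The values on the log2 scale were 1.07 for *Mcm10* (adjusted p = 0.00771), 1.02 for *Pcna* (0.00573), 0.87 for *Mcm7* (0.00838), 0.77 for *Cdt1* (0.0291) and 0.60 for *Mcm6* (0.0389). Over all genes, 20.7% passed by this term and 7.77% passed in this direction. For each of the 5 genes the libraries overlapped at day 3 and were apart at day 6. This follows in part from their choice by the same term and adds no separate support. Over all genes, 43.4% were apart at day 3 in either direction, and 29.9% were apart and higher at day 6. Groups of 2 libraries are too small for a check of single outlying samples.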

How the results depend on the processing

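The precision rests on 2 libraries per group. None of the 10 genes was called at day 3 under any of the 20 alternatives. With 1 library left out, a lone sample is assumed to vary like the other groups, and the number of the 10 genes called was 0 throughout at day 3, 3 to 7 between the knockdowns at day 6, 3 to 8 between the days in *siNcor1*, 2 to 4 between the days in the libraries labelled *siOct4* and 2 to 6 for the change of the knockdown difference. Their median log2 difference ranged from −0.24 to 0.072, from 0.48 to 0.70, from −0.83 to −0.45, from −0.043 to 0.043 and from 0.50 to 0.77 in the same order. With no trend of the variance, 3 genes were called for the change of the knockdown difference in place of 5. Between the days, quantile normalization gave medians of −0.45 (*siNcor1*) and 0.20 (label *siOct4*), and totals without *Gm26917* gave 0.11 in the latter. The cause of these shifts was not tested.

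Under the 12 other settings, changes of sign were seen only for differences that passed in neither fit. With median centring *Mcm2* had 0.0087 at day 3 and *Ccnb2* 0.012 at day 6, and with quantile normalization *Ccnb2* had 0.013 at day 6 and *Mcm5* 0.099 between the days in the libraries labelled *siOct4*. With totals without *Gm26917* *Mcm5* had 0.012 in that comparison and −0.032 at day 3. Without normalization factors *Mcm5* had −0.023 at day 3, *Mcm4* −0.063 and *Dbf4* −0.044 at day 6, and *Orc1* −0.028 between the days in the libraries labelled *siOct4*.

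With 1 library left out, the differences that changed sign ranged at day 3 from −0.16 to 0.15 (*Mcm2*), −0.19 to 0.14 (*Mcm3*), −0.21 to 0.0048 (*Mcm4*), −0.21 to 0.23 (*Mcm5*), −0.27 to 0.051 (*Mcm7*), −0.42 to 0.092 (*Mcm10*) and −0.26 to 0.16 (*Cdc6*). At day 6 they ranged from −0.0079 to 0.056 (*Mcm4*), −0.0293 to 0.31 (*Orc3*), −0.20 to 0.28 (*Dbf4*), −0.29 to 0.089 (*Pold4*), −0.35 to 0.20 (*Rrm2b*) and −0.13 to 0.074 (*Ccnb2*). Between the days they ranged in *siNcor1* from −0.025 to 0.17 (*Pcna*) and −0.071 to 0.31 (*Nusap1*), and with the label *siOct4* from −0.060 to 0.19 (*Mcm2*), −0.37 to 0.036 (*Cdc6*) and −0.11 to 0.17 (*Orc1*).

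The replicate numbers carry no stated batch, and libraries sharing a number deviated from their group means with correlations of −0.040 to 0.281, so they were not taken as pairs. A replicate block left the 10 genes with 0, 7, 7, 4 and 5 calls, as without it, and it brought *Mcm8* past the threshold at day 6 (limma adjusted p = 0.0292) and *Dbf4* between the days with the label *siOct4* (adjusted p = 0.0372). For the change of the knockdown difference the block called 9 in place of 4 replicative polymerase and fork genes, 2 in place of 0 genes of the origin recognition complex and 1 in place of 0 other MCM genes. Over all genes the block moved the day 3 count from 148 to 222. Leaving out 1 library moved the counts over all genes to between 3 and 375 at day 3, 1398 and 4669 at day 6, 2360 and 5954 in *siNcor1*, and 1009 and 3667 for the change of the knockdown difference. The fit without the trend called 43 genes at day 3.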
